A study of Mus musculus with 2 samples.

Results

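The genes described here are 35 known targets and regulators of p53, the product of Trp53, and their messenger RNA was compared between 2 arrays of the mouse macrophage-like tumour line RAW 264.7. One array held RNA from cells given IFNg (interferon gamma) at 1000 U/ml for 4 h, and the other RNA from cells given the same IFNg dose together with adenosine, a nucleoside sensed by G protein-coupled receptors, at 300 uM for 4 h. Both groups therefore carry IFNg, and no untreated array was analysed here. RNA of 2 experiments was pooled per treatment before hybridization to an Affymetrix mouse expression array, so each group is 1 array and no difference below has a replicate check or a test. The genes were selected by their names as p53 targets from earlier results of these same arrays, in which several of them had stood among the highest ratios, so the counts that follow describe the selection and are not evidence about p53 targets as a class.

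Of the 35 genes, 32 had at least 1 probe set with that gene as its only symbol, which gave 51 probe sets in all among 12393 genes of the array. Trp53 itself, Bax and Tigar were not analysed here. A gene counted as measured when its brighter array reached a signal of 44.0, the 50th percentile of gene probe set signals, and 27 of the 32 did, against 6818 of the 12393. The probe set of highest mean signal gives each gene's value, with its other probe sets beside it. The adenosine array was dimmer throughout, with a median log2 ratio of -1.50, so its signals were multiplied by 2.82 and all ratios below are relative to the array median. Spiked-in control transcripts differed by less, at a median log2 ratio of -0.53 ± 0.19 (SD, 18 probe sets). A gene with a small positive ratio on this scale was thus lower in the deposited values. The error used below is the scatter of log2 ratios among a gene's own probe sets, with an SD of 0.52 (2375 genes), which leaves out the spread between cultures and arrays.

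The line's labelled identity was checked against markers. All 12 macrophage markers were measured, with IFNg signals from 261.5 to 6444 (Cd68, Csf1r and Lyz2 among them). None of the markers of T and B cells (0 of 7), of fibroblasts, endothelium and epithelium (0 of 11) or of granulocytes, mast and erythroid cells (0 of 8) reached the floor on either array, and their highest signals were 7.05, 14.1 and 28.8.

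As background, p53 is a transcription factor that is held at a low level by the ubiquitin ligase Mdm2 and accumulates after DNA damage and other stress. It then binds DNA at paired copies of a short motif and raises genes that halt the cell cycle, repair DNA, trigger cell death or adjust metabolism, and it also raises Mdm2, which closes a feedback loop. Many of these genes answer to other transcription factors as well, so a change in them does not identify p53 as the source.

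With adenosine, the 8 genes at least 2-fold higher were Rbm38, Sesn2, Phlda3, Gtse1, Polk, Mdm2, Trp53inp1 and Tob1, and the 3 at least 2-fold lower were Dram1, Btg2 and Rrm2b. The 8 make up 29.6% of the 27 measured members, where 4.52% of all measured genes were that much higher. The 3 make up 11.1%, where 10.1% of all measured genes were that much lower. The remaining 16 lay between, Cdkn1a, the most widely used readout of p53, among them. In RNA of whole cultures, a change in every cell and a change in some cells cannot be told apart. The median log2 ratio was 0.35 over the 27 and -0.08 over all 6818. The member closest to the 2-fold lines among those past them was Rrm2b at -1.07, and the closest among those short of them was Tnfrsf10b at 0.72, a lower bound. In the deposited values, with no correction for the dimmer array, 8 of the 27 had a higher signal with adenosine, a property of 2.01% of all measured genes. They were Rbm38, Sesn2, Phlda3, Gtse1, Polk, Mdm2, Trp53inp1 and Tnfrsf10b, and with the floor of 24.5 on that scale none of them reached 2-fold. For Mdm2 and Sesn2 this held only in the probe set of highest mean signal. Their other probe set was lower with adenosine in the deposited values, at log2 ratios of -0.86 and -0.57.

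**Figure D1:**
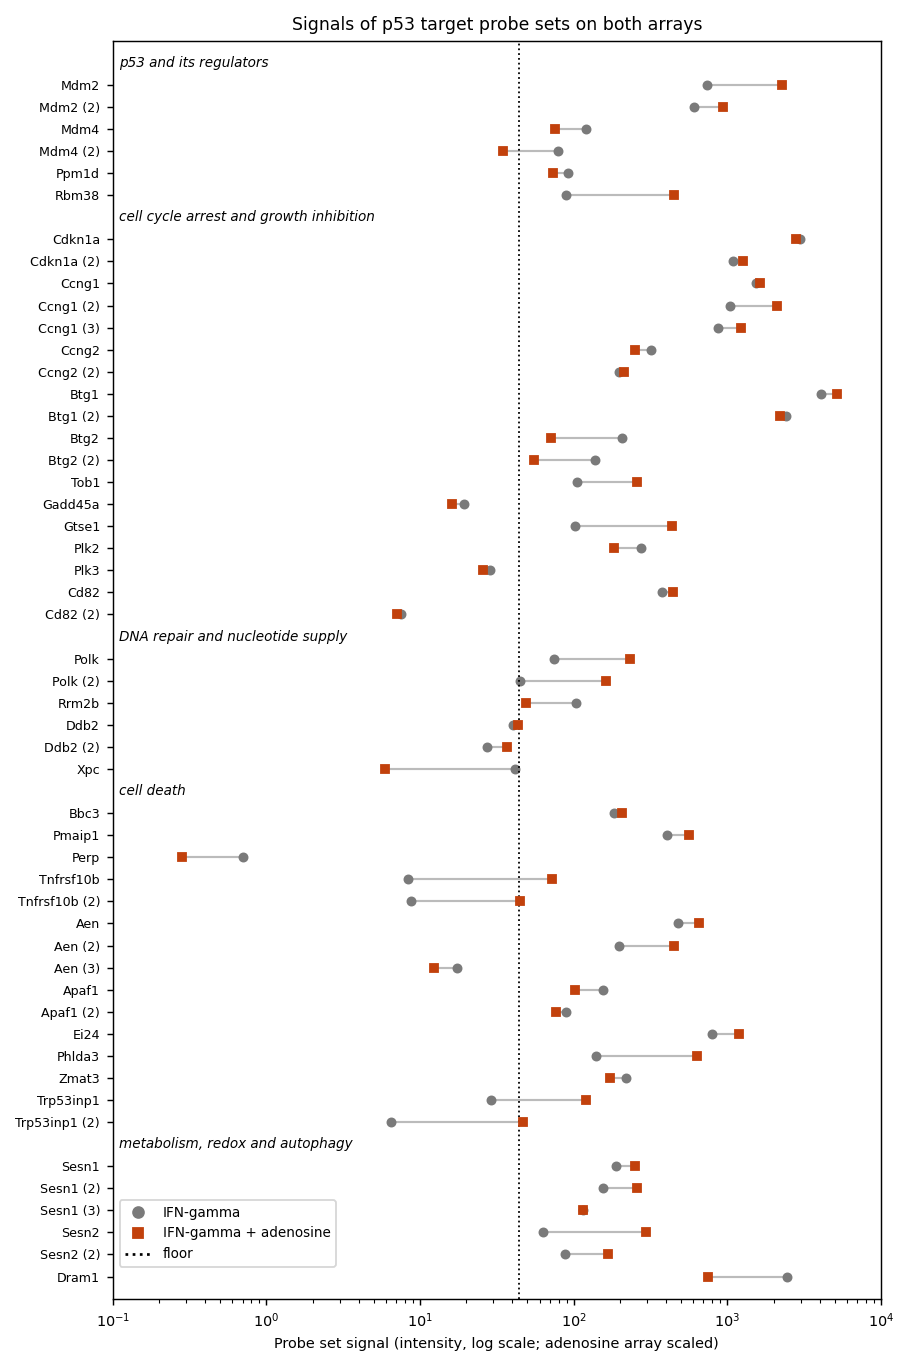
Probe set signal (intensity, log scale) of each of the 51 probe sets on the IFNg array (grey circles) and on the adenosine array after scaling (orange squares), 1 row per probe set, grouped by role. Numbers in brackets mark further probe sets of a gene and the dotted line is the floor of 44.0. Rbm38, Phlda3, Gtse1 and Sesn2 show the widest upward gaps above the floor and Dram1 the widest downward one.

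**Figure D2:**
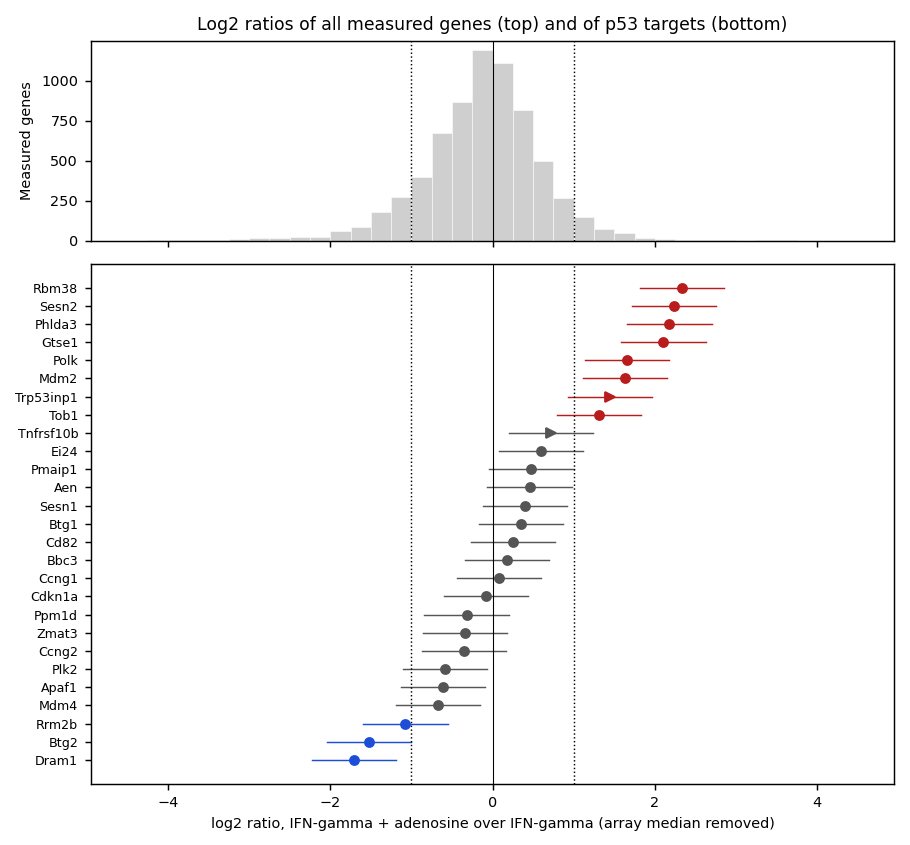
Number of measured genes per bin of log2 ratio (top, 6818 genes) and the log2 ratio of each of the 27 measured p53 targets (bottom), with dotted lines at 2-fold. Horizontal bars are the SD of 0.52 between probe sets of a gene, triangles mark ratios that are lower bounds, red is at least 2-fold higher and blue at least 2-fold lower. The targets run from -1.71 for Dram1 to 2.33 for Rbm38.

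Among the regulators of p53, Rbm38 and Mdm2 were higher and Mdm4 and Ppm1d lay slightly below the array median. Rbm38 encodes an RNA-binding protein that stabilises Cdkn1a mRNA and holds back translation of p53 mRNA. Its probe set read 89.8 with IFNg and 452 with adenosine, a log2 ratio of 2.33 (5.03-fold), rank 7 from the top of 6818 genes. It was the only probe set for Rbm38, so no second reading exists. Its name has an ending counted here as shared (_a_at, _s_at or _x_at), as have both Mdm2 probe sets. Without shared probe sets, neither gene has a reading. Mdm2 read 735 and 2284 in its brighter probe set, a log2 ratio of 1.63 (3.11-fold), and 604 and 939 in the other, a log2 ratio of 0.64. Both Mdm2 readings were above the array median, but they lay 1.00 apart and only the brighter passed 2-fold. Mdm4, a relative of Mdm2 that masks the activation domain of p53, read 120 and 75.3 (log2 ratio -0.67), and its second probe set fell below the floor with adenosine (78.6 and 34.7, at least 1.79-fold lower). Ppm1d, the phosphatase that removes damage-induced phosphate marks from p53 and its kinases, read 91.9 and 73.6, a log2 ratio of -0.32 that lies within the SD.

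Genes of cell cycle arrest and growth inhibition had a median log2 ratio of 0.08. Of 9 measured, 2 (22.2%) were at least 2-fold higher and 1 (11.1%) lower, where 4.52% and 10.1% of all measured genes were. Gtse1, a microtubule-binding protein of S and G2 phase that moves p53 out of the nucleus, read 102 and 440 (log2 ratio 2.11, 4.30-fold), rank 17 from the top. Tob1, an antiproliferative protein of the BTG/TOB family, which binds the mRNA deadenylase complex, read 105 and 260 (log2 ratio 1.31, 2.48-fold). By the probe set of highest mean signal, Tob1 was the only member of the 8 whose direction turned in the deposited values, to a log2 ratio of -0.18. Both genes were read from a single probe set.

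Cdkn1a, which encodes the cyclin-dependent kinase inhibitor p21, hardly differed between the arrays once the array median was removed. Its brighter probe set read 2962 and 2809, a log2 ratio of -0.08, and the other 1086 and 1267, a log2 ratio of 0.22. Both readings lie within the SD of 0.52 and also within the SD of 0.41 found among the brightest 594 genes with 2 probe sets. In the deposited values the log2 ratio of Cdkn1a was -1.57 in the brighter probe set and -1.27 in the other. After scaling to the spiked-in controls it was -1.04, just past 2-fold, read from the brighter probe set alone. Ccng1, the cyclin G1 gene, whose product directs a phosphatase to Mdm2, gave 3 different readings. Its probe sets had log2 ratios of 0.08 (1543 and 1632), 1.02 (1042 and 2109) and 0.49 (876 and 1232), all above 0 and only the second past 2-fold. Ccng2, a related atypical cyclin, had log2 ratios of -0.35 and 0.12.

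Btg2 and Btg1, relatives of Tob1, parted from it and from each other. Btg2 read 205.5 and 71.3 in its brighter probe set (log2 ratio -1.53, 2.88-fold lower) and 137 and 55.0 in the other (log2 ratio -1.32). Btg2 was the only member with 2 probe sets past 2-fold on the lower side, and its ratio shrank to -0.31 with the floor at the 67th percentile, which raises its adenosine signal. Btg1 read 4045 and 5143 (log2 ratio 0.35), and its second probe set gave -0.14, so its sign differed between readings. Plk2, a polo-like kinase, read 276 and 184 (log2 ratio -0.58). Cd82, a tetraspanin known as a suppressor of metastasis, read 374 and 446 (log2 ratio 0.26). Gadd45a, a stress sensor that binds p21 and PCNA, was below the floor on both arrays (19.2 and 16.1), as was Plk3 (28.4 and 25.7), so neither has a ratio.

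DNA repair genes were the least well measured, with 2 of 4 above the floor and the pair on opposite sides. Polk, the translesion DNA polymerase kappa, read 74.2 and 234 (log2 ratio 1.66, 3.16-fold), and its second probe set 44.6 and 162 (log2 ratio 1.86). It was the only member with 2 probe sets past 2-fold on the higher side, although the second started at the floor. Rrm2b, the p53-inducible subunit of ribonucleotide reductase that supplies nucleotides for repair, read 103 and 49.0 (log2 ratio -1.07, 2.10-fold lower). Its adenosine signal was close to the floor, and it no longer passed 2-fold under quantile scaling or with the pseudocount. Ddb2 and Xpc recognise damaged DNA in nucleotide excision repair. Ddb2 read 40.1 and 43.4, and Xpc 41.7 and 5.92, all below the floor. Xpc counted as at least 2-fold lower once the floor was set at the 33rd percentile.

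Among 9 measured genes of cell death, 2 (22.2%) were at least 2-fold higher and 0 lower, where 4.52% and 10.1% of all measured genes were. Their median log2 ratio was 0.48. Phlda3, a membrane-binding protein that competes with the survival kinase Akt, read 141 and 638 (log2 ratio 2.18, 4.53-fold), rank 14 from the top, from its only probe set. Trp53inp1, a stress-induced protein that acts with p53 and in autophagy, was below the floor under IFNg (29.0) and read 120 once adenosine was present, at least 2.72-fold higher. Its second probe set read 6.5 and 47.1, just above the floor, and gives only a bound of 1.07-fold. Tnfrsf10b, the mouse receptor for the death ligand TRAIL, had the same pattern at lower signal (8.4 and 72.4, at least 1.65-fold higher), and a second probe set read 8.8 and 44.5. Those 4 readings all started below the floor, and their size depends on where the floor is set. With the floor at the 33rd percentile the log2 ratio of Tnfrsf10b was 3.05, and with a pseudocount of 16 in place of the floor it was 1.86, so that under either setting it passed 2-fold on the higher side.

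The death effectors themselves moved less. Pmaip1 (NOXA) and Bbc3 (PUMA), which neutralise BCL2-type survival proteins, had log2 ratios of 0.48 (406 and 565) and 0.17 (182 and 205), both within the SD. Aen, a nuclease that enhances apoptosis, had a log2 ratio of 0.45 in its brighter probe set (479 and 657) and 1.19 in its second (197 and 451), while its last one was below the floor. Ei24, an endoplasmic reticulum protein, read 796 and 1199 (log2 ratio 0.59). Apaf1, the scaffold of the apoptosome, had log2 ratios of -0.61 and -0.21, and Zmat3, a zinc finger RNA-binding protein, -0.34 (218 and 173). Perp, a membrane protein of cell death and cell adhesion, was not detectable above the floor (0.70 and 0.28).

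The metabolic genes held the largest split. Sesn2, a sestrin that restrains the growth kinase mTORC1 in amino acid shortage and oxidative stress, read 63.3 and 298 (log2 ratio 2.23, 4.71-fold), rank 10 from the top. A second Sesn2 probe set, brighter with IFNg alone, read 88.2 and 167 (log2 ratio 0.92), short of 2-fold. Its relative Sesn1 had log2 ratios of 0.40 (189 and 250), 0.75 (155 and 260) and 0.00 (116 on both arrays). Dram1, a lysosomal membrane protein that promotes autophagy, read 2458 and 751 (log2 ratio -1.71, 3.27-fold lower), rank 159 from the bottom, and it was the lowest of the members. Dram1 stayed at least 2-fold lower under all 10 other ways of scaling and reading, with log2 ratios from -3.21 to -1.62. It was read from its only probe set, and both signals lay above every floor used. The choices of probe set and of floor therefore could not change its ratio, and only the scalings and the pseudocount did.

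Agreement between probe sets could be read for the 11 members whose brightest 2 probe sets both read above the floor with and without adenosine. From those 2, a single log2 ratio had an SD of 0.48, beside 0.52 over all genes. In 7 of the 11 the gap was no larger than the scatter of all genes gives for a difference of that kind. The widest gaps were in Sesn2 (1.31), Mdm2 (1.00) and Ccng1 (0.94), and all readings of these genes lay above 0. For Trp53inp1, Tnfrsf10b and Mdm4 at least 1 of the readings is a bound, so no gap is given. Of the 8 higher members, Polk alone was at least 2-fold higher in 2 probe sets, Mdm2, Sesn2 and Trp53inp1 were so in 1 of 2, and Rbm38, Phlda3, Gtse1 and Tob1 had 1 probe set each.

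**Figure D3:**
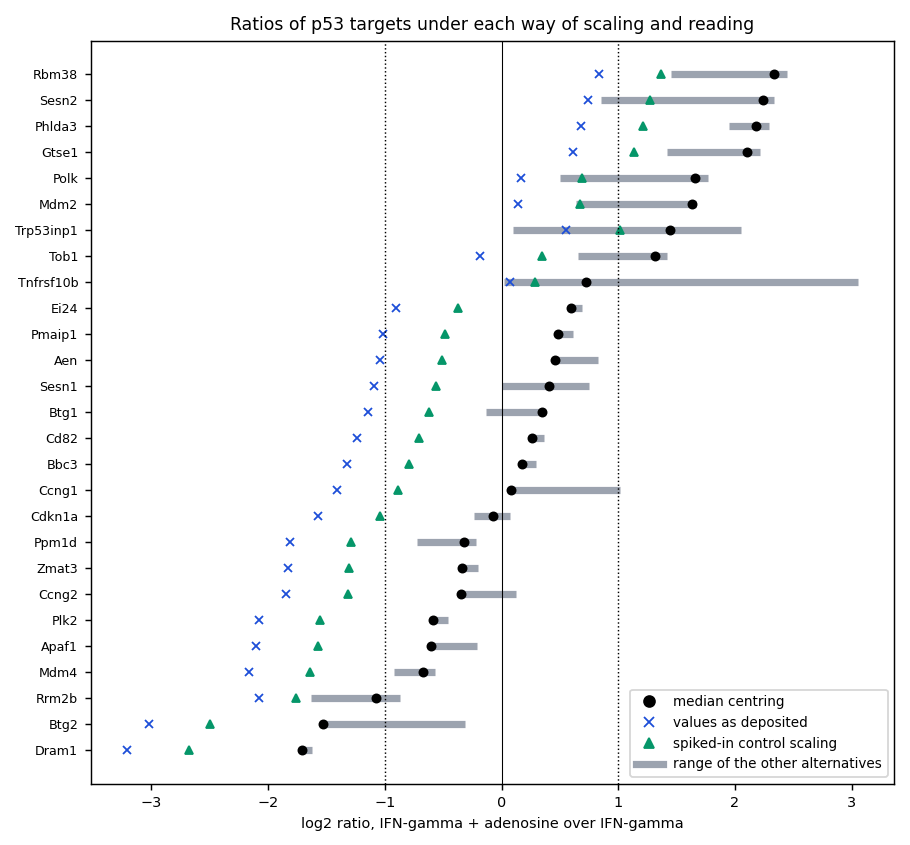
Log2 ratio of each of the 27 measured members by median centring (black circles), in the deposited values (blue crosses) and after scaling to the spiked-in controls (green triangles), with grey bars for the range over the other alternatives and dotted lines at 2-fold. Scaling to the controls leaves 5 members past 2-fold on the higher side, and the deposited values leave 0.

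The scaling decides how many members pass 2-fold, because it moves nearly all ratios together. Scaled to the spiked-in controls, 5 of 29 measured members were at least 2-fold higher (Rbm38, Sesn2, Phlda3, Gtse1 and Trp53inp1). Another 10 were lower, Cdkn1a among them, where 0.47% of all measured genes were higher and 50.7% lower. In the deposited values 0 of 30 measured members were higher and 17 lower, Cdkn1a again among them, where 0.14% and 78.8% of all were. Read from whichever measured probe set lay closest to 0, Rbm38, Phlda3, Gtse1, Polk and Tob1 remained at least 2-fold higher, where 3.17% of all genes were. Rbm38, Phlda3, Gtse1 and Tob1 have 1 probe set each, so this reading could not change them. Of the higher members with a second probe set only Polk stayed, and Mdm2 (0.64), Sesn2 (0.92) and Trp53inp1 (0.10) fell short. With the floor at the 67th percentile, a signal of 165, 4 of 21 measured members stayed at least 2-fold higher. They were Rbm38, Phlda3, Gtse1 and Mdm2, where 2.63% of all 5062 measured genes were that much higher. Phlda3 kept the narrowest range of the 4, from 1.95 to 2.29 over its 8 alternatives that keep ratios relative to the other genes. Rbm38 and Mdm2 had 7 such alternatives. Phlda3 has 1 probe set, so the choice of probe set could not widen its range, whereas Mdm2 has 2.

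The rest of the pathway was described through 5 further gene lists, with 117 measured genes in all. Of these, 12 (10.3%) were at least 2-fold higher, where 4.52% of all measured genes were, and 19 (16.2%) lower, where 10.1% were. Their median log2 ratio was -0.05, beside -0.08 over all genes. These counts rest on the scaling too: the deposited values gave 1 higher and 88 lower with a median of -1.52, and scaling to the spiked-in controls gave 3 and 59 with a median of -1.03.

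Kinases and sensors of the DNA damage signal lie upstream of p53. Of 16 measured, 1 (6.25%) was at least 2-fold higher and 2 (12.5%) lower, where 4.52% and 10.1% of all measured genes were. The median log2 ratio of the 16 was -0.28. Chek1, the checkpoint kinase of S and G2 phase, read 83.0 and 207 (log2 ratio 1.32, second probe set 1.18). Atr, the kinase that activates it, read 305 and 79.5 (3.84-fold lower), and H2ax, the histone variant phosphorylated at DNA breaks, 1387 and 689 (2.01-fold lower). Atr and H2ax each had 1 measured probe set.

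Cofactors and regulators of p53 stood near the array median, with a median log2 ratio of -0.12. Of 18 measured, 1 (5.56%) was at least 2-fold higher and 1 (5.56%) lower, where 4.52% and 10.1% of all measured genes were. Setd7, a lysine methyltransferase, read 6.6, below the floor, and 150, at least 3.41-fold higher. Usp10, a deubiquitinase that stabilises p53, read 493 and 155 (3.19-fold lower).

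A wider list of p53 targets, none of them among the 35 genes, held 41 measured genes. Of these, 5 (12.2%) were at least 2-fold higher and 9 (21.95%) lower, where 4.52% and 10.1% of all measured genes were. The median log2 ratio of the 41 was 0.17, and -0.09 under loess scaling. The highest were Slc19a2, a thiamine transporter (444 and 1840, log2 ratio 2.05, second probe set 3.69), Ddit4, an inhibitor of mTORC1 (122.5 and 476, log2 ratio 1.96), and Epha2, an ephrin receptor (16.6 and 91.05, at least 2.07-fold higher). At the low end, Notch1, a receptor of cell fate, was at least 6.74-fold lower in its brighter probe set (297 and 24.5), but the other one gave -0.08. Ikbke, a kinase of innate immune signalling, was 6.71-fold lower (618 and 92.2), and the death receptor gene Fas 5.02-fold lower (460 and 91.6).

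Cell cycle genes that p53 lowers through p21 did not share a direction. Of 25 measured, 3 (12.0%) were at least 2-fold higher and 1 (4.0%) lower, where 4.52% and 10.1% of all measured genes were. The median log2 ratio of the 25 was 0.13, and -0.0032 when the probe sets of a gene were averaged. E2f1, a factor that drives entry into S phase, had a log2 ratio of 1.21, the phosphatase gene Cdc25a 1.10 (second probe set 0.38) and the replication helicase gene Mcm5 1.06, whereas Mki67, a marker of proliferating cells, had -1.16.

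Some members, Sesn2 among them, also respond to the integrated stress response, the pathway of the factor Atf4, so its genes were read beside them. Of 17 measured, 2 (11.8%) were at least 2-fold higher and 6 (35.3%) lower, where 4.52% and 10.1% of all measured genes were. The median log2 ratio of the 17 was -0.24. The lowest were Chac1 (211 and 26.8, at least 4.79-fold lower), Ddit3 (log2 ratio -1.48) and Trib3 (108 and 37.5, at least 2.45-fold lower, second probe set -1.04). Slc7a11, the cystine transporter gene, read 47.1 and 188 (log2 ratio 2.00), and Vegfa 125 and 490 (log2 ratio 1.97), with a second probe set at -0.12. The part of this pathway in the Sesn2 ratio was not tested.

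**Figure D4:**
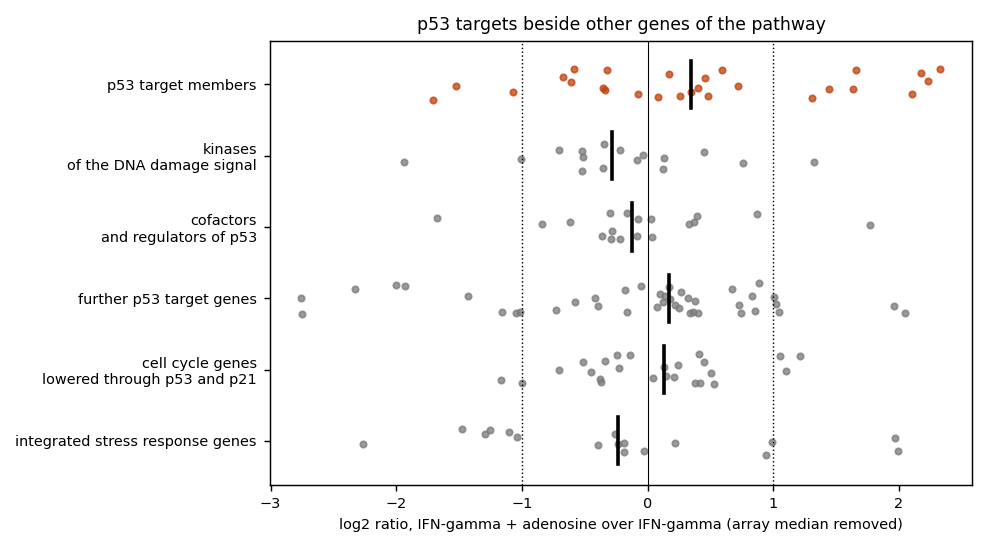
Log2 ratio of each measured gene (points) in the p53 targets described here (orange) and in 5 other lists of the pathway (grey), with the median of each list as a black bar and dotted lines at 2-fold. Points are spread vertically to separate them. Medians run from -0.28 for the damage signal kinases to 0.35 for the p53 targets.

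Promoter sequence was read as a description. Genes are known as p53 targets partly through p53 sites near them, so the share of members with a p53 element is not independent of their selection. RefSeq windows from 250 bases before to 50 after the gene start (GRCm38.p6) were available for 24 of the 32 genes on the array, 35 windows in all. They were searched for a p53 element, defined as a pair of adjoining p53 consensus motifs, 20 bases in all, with the C and G of both cores kept. With at most 1 mismatch, such an element stood in the windows of 3 of the 24 genes, Gtse1, Ccng1 and Cdkn1a. Over all 27025 genes with windows the share was 0.0814%. The 3 windows are printed because their genes gave different ratios with like elements, 2.11 for Gtse1, 0.08 to 1.02 for Ccng1, and -0.08 and 0.22 for Cdkn1a. Capitals mark the element, which begins 1 base before the start that sets the printed window in Gtse1, 195 in Ccng1 and 51 in Cdkn1a. Gtse1 and Cdkn1a each had a further window from another start. The best pairs there had 6 and 7 mismatches.
Gtse1 (chr15:85859696-85859995, + strand): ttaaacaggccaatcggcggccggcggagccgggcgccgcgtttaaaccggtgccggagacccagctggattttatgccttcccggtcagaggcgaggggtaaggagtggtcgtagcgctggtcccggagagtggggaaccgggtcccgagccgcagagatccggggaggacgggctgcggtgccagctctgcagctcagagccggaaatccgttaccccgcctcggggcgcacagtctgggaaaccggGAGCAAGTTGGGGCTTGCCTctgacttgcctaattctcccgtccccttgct
Ccng1 (chr11:40755237-40755536, - strand): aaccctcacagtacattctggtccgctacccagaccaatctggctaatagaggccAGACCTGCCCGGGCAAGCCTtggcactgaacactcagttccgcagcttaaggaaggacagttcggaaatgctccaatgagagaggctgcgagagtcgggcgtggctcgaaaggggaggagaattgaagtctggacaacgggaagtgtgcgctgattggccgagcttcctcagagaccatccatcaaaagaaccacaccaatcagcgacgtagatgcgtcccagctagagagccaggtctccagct
Cdkn1a (chr17:29090729-29091028, + strand): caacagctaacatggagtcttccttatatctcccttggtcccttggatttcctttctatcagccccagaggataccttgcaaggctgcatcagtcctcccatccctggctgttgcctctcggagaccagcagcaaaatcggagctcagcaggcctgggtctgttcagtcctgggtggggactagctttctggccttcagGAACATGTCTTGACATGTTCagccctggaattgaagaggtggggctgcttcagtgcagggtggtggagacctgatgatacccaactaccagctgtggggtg

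With up to 3 mismatches the element was also found near Aen, Bbc3 and Sesn1. That made 6 of the 24 genes, where 1.63% of all genes with windows had one. These stretches are printed with 30 bases on either side. Their genes had ratios below 2-fold in the brighter probe set, 0.45 for Aen, 0.17 for Bbc3 and 0.40 for Sesn1.
Aen (chr7:78895907-78895986, + strand): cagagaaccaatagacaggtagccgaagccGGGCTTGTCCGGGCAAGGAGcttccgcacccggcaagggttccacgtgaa
Bbc3 (chr7:16309456-16309535, + strand): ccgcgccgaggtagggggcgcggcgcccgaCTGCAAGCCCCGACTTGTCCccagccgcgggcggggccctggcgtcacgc
Sesn1 (chr10:41887236-41887315, + strand): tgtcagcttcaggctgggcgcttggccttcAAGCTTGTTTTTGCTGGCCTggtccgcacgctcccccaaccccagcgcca

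Rbm38, Sesn2, Phlda3, Tob1, Mdm2 and Polk, all at least 2-fold higher, had no such element within these windows, which says nothing of sites elsewhere in the genes. Single copies of the 10-base motif, those inside the elements included, stood in the windows of 10 of the 24 genes. Over all genes with windows the share was 9.55%. Mdm2 and Polk were among the 10.

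The cAMP response element TGACGTCA, read on both strands, was present in 3 of the 24 genes, Btg2, Plk2 and Ppm1d. Over all genes with windows the share was 2.03%. It is shown because cAMP is a second messenger of adenosine receptors, and because the 3 genes lay below the array median. Their log2 ratios were -1.53, -0.58 and -0.32. Only Btg2 passed 2-fold, and the ratio of Ppm1d lay within the SD between probe sets of a gene. The element was picked for printing with these ratios known, so their shared sign is no test of cAMP. Whether cAMP had a part in these ratios was not tested. A letter match does not show binding. Capitals mark the element.
Btg2 (chr1:134079284-134079351, - strand): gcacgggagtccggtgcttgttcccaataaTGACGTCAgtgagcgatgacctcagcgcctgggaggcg
Plk2 (chr13:110394952-110395019, + strand): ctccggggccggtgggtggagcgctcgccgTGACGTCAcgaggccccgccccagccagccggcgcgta
Ppm1d (chr11:85311139-85311206, + strand): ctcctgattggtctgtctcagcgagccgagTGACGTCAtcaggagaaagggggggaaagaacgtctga

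Other motifs searched on both strands were the AP-1 element TGANTCA and the interferon gamma element TTCNNNGAA. The AP-1 element stood in windows of 2 of the 24 genes, Mdm4 and Rbm38, where 8.97% of all genes had it. The interferon gamma element stood in windows of 2 of the 24, Cd82 and Polk, where 9.55% of all genes had it. Mdm4 and Rbm38 lay on opposite sides of the array median, and Cd82 and Polk above it.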

How the data were processed

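Messenger RNA was measured on 1 Affymetrix mouse array per treatment. The table holds 1 deposited intensity value per array, on a linear scale, for each of 22690 probe sets. Per the submitters' processing notes the Affymetrix software GCOS was used. Which signal algorithm and scaling target it ran with is not given in the sources. Gene names come from the platform annotation: 20380 of 22626 gene probe sets carried 1 symbol, and 691 with several symbols and 1555 without were left out of gene results.

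The adenosine array was scaled by the median log2 ratio of 10051 gene probe sets at or above the 50th percentile of deposited signals (24.5) on both arrays. A floor of 44.0 was then set, signals below it were raised to it, and such folds are given as "at least". With 1 array per group no test was possible. Genes were counted at 2-fold.

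The members and gene lists were chosen with earlier results of these data known. All 35 members are named. Other lists are represented by up to 3 genes at each end past 2-fold. Of their 158 entries, 132 were matched to the array. The counts, medians and ratios of the members and the counts over all genes were recomputed with other scalings (deposited, quantile, loess, spiked-in controls), lower and higher floors (percentiles 33 and 67), a pseudocount of 16 in place of the floor, other choices of probe set, and thresholds of 1.5-fold and 3-fold. The 5 further lists and their named genes were recomputed in the same ways, a step chosen after seeing the data. Marker and promoter counts were not recomputed. The calculation was tested on simulated data. Python 3.11.15, pandas 2.3.3 and statsmodels 0.14.6 were used, and promoter windows are from RefSeq, GRCm38.p6.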

Additional observations from a re-analysis of the deposited data

How the results depend on the processing

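No paired analysis was possible because the groups hold 1 array each, which also leaves no replicate to omit. Median centring gave 8 higher and 3 lower members of 27, and 308 higher and 691 lower genes of 6818. The values as deposited gave 0 and 17 of 30 members and 10 and 5605 of 7117 genes. Their member median was -1.07, and Tob1 turned to -0.18. Spiked-in control scaling gave 5 and 10 of 29 members, 33 and 3538 of 6975 genes and a member median of -0.56. Lowering the floor to percentile 33 gave 9 higher members of 31, and the pseudocount 9 of 27, each with Tnfrsf10b past 2-fold. The lower floor also gave 599 higher genes of 9177 and a member median of 0.17. Raising it to percentile 67 gave 4 and 1 of 21 members and 133 and 328 of 5062 genes. Without shared probe sets, 7 members of 24 were higher and 3 lower, and 259 and 545 of 5393 genes. Rbm38, Mdm2 and Btg1 have only shared probe sets and dropped out, and Ccng1 passed 2-fold at 1.02. With the measured probe set of smallest ratio, 5 members were higher and the median was 0.10, and loess scaling gave a median of 0.18, against 0.35 by median centring. At 1.5-fold 6 members were lower, with 879 and 1489 genes on either side, and at 3-fold 1 member was lower, with 67 and 202 genes. Of 260 recomputed log2 ratios of single members, 191 moved by less than the SD of 0.52, 68 by more, and the 1 for Tob1 changed sign after passing 2-fold. In recomputations of the 5 further lists, chosen after seeing the data, the deposited values turned Chek1 to -0.17, E2f1 to -0.28, Cdc25a to -0.40 and Mcm5 to -0.44. Leaving out shared probe sets, or taking the one of smallest ratio, turned Vegfa to -0.12. Across the alternatives at 2-fold the 5 lists together held 1 to 15 higher and 13 to 88 lower genes. At 1.5-fold they held 22 higher and 25 lower, and at 3-fold 5 and 8. The number of arrays limits the precision, and signals near the floor limit the ratios of Trp53inp1, Tnfrsf10b, Polk and Rrm2b.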
